A study of Homo sapiens with 9 samples.

Results

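The genes of heme breakdown and heme supply were followed across RNA-seq libraries of HK-2 cells, an immortalized line derived from human renal proximal tubule epithelium. The genes were chosen by symbol for their place in heme turnover, with earlier results of these data known. The set held 10 genes among the 58884 Ensembl gene identifiers listed for each library. It comprised the heme oxygenases HMOX1 and HMOX2, the biliverdin reductases BLVRA and BLVRB, the heme-sensing repressor BACH1, the first and last enzymes of heme synthesis ALAS1 and FECH, and the heme transporters SLC48A1, FLVCR1 and ABCB6.

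There were 9 libraries in 3 groups of 3. Control cells are labelled untreated, while the treatment protocol states that controls received the vehicle. The PM2.5 group was given fine particulate matter for 24 h. The third group was given lactoferrin, a secreted protein of the transferrin family that binds iron, for 6 h and then PM2.5 for 18 h. The series text states doses of 1 mg/ml PM2.5 and 40 mg/ml lactoferrin, with no second source for either unit. No group had lactoferrin without PM2.5, and the time in PM2.5 differed between the exposed groups, so an effect of lactoferrin and one of the shorter exposure cannot be told apart. The labels do not say whether replicates came from separate cultures, so p-values measure the spread between these libraries, which may be technical. The comparison of the PM2.5 group with control and that of the lactoferrin and PM2.5 group with control share the control libraries, and both exposed groups are set against each other as well, so the 3 comparisons are not independent.

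Heme is made in and around the mitochondrion, from the condensation catalysed by ALAS1 to the insertion of iron by FECH. Heme oxygenases open the ring and release biliverdin, carbon monoxide and iron, and biliverdin reductases turn biliverdin into bilirubin. BACH1 dimerizes with small MAF proteins on antioxidant response elements and represses HMOX1 until heme binds it, after which NRF2 with small MAF proteins can occupy the same elements. In the kidney, HMOX1 is low in resting tubules and is induced by heme, metals and oxidants, while HMOX2 is regarded as the constitutive isozyme.

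Values are FPKM, fragments scaled to transcript length and to sequencing depth, which allows levels of different genes to be compared per length. Depth, recovered from the step between low FPKM values, was 15313451 to 18820465 fragments per library. The first principal component separated control from exposed libraries and held 54.4% of the variance. On the second component (13.6%) the first lactoferrin and PM2.5 library stood apart, and on the third (8.81%) the third control library did. The 9 tested heme genes and the gene list counts were therefore also computed without these libraries together, and the changed values are given with each list.

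The cells were checked against markers of their labelled origin. Of 16 proximal tubule markers, 12 stayed below 1 FPKM in every library, among them the endocytic receptor genes LRP2 (at most 0.0142 FPKM) and CUBN (at most 0.0319 FPKM), and the organic anion transporter SLC22A6 was at 0 throughout. The renal transcription factor gene PAX8 was present at 50.4 to 85.7 FPKM. Macrophages and erythroid cells are the textbook high expressers of HMOX1 and of heme synthesis genes. Of 10 macrophage and leukocyte markers, 8 stayed below 1 FPKM, with PTPRC at most 0.0116 FPKM and CD163 at most 0.0197 FPKM and with CD14 and CSF1R reaching 1.39 and 1.28 FPKM. The summed level was 1.30 to 2.42 FPKM in control, 1.24 to 2.17 in PM2.5 and 1.45 to 2.15 in lactoferrin and PM2.5. CSF1R was at 0.697, 0.574 and 0.590 FPKM in control and 1.02, 1.16 and 1.16 with lactoferrin and PM2.5, higher by 0.51 ± 0.15 (adjusted p 0.0220, limma). All 11 erythroid markers stayed below 1 FPKM and 6 of them were at 0 in every library. Other markers moved with exposure, and their part in the heme gene results was not tested. The summed simple epithelium markers were at 336 to 368 FPKM in control, 281 to 293 in PM2.5 and 286 to 373 in lactoferrin and PM2.5, and the keratin genes KRT8 and KRT7 fell with PM2.5, by 0.66 ± 0.12 and 1.15 ± 0.14 (adjusted p 0.00256 and 0.000316). The summed endothelium and fibroblast markers were at 48.1 to 54.4, 66.2 to 68.1 and 50.8 to 55.1 FPKM. With PM2.5 the matrix genes LUM and DCN rose by 0.54 ± 0.09 and 0.48 ± 0.13 (adjusted p 0.00136 and 0.0197), and COL1A1 fell by 1.95 ± 0.13 (1.15e-05). Of the proximal tubule markers PAX8 and MIOX rose with PM2.5, by 0.61 ± 0.08 and 1.59 ± 0.18 (adjusted p 0.000535 and 0.000232), and CDH6 fell by 1.73 ± 0.16 (5.83e-05). In these bulk libraries, fewer cells of a kind and less RNA per cell cannot be told apart.

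In the PM2.5 group, 5 genes of the set rose against control, namely HMOX1, ALAS1, SLC48A1, BLVRB and FLVCR1, and 1, HMOX2, fell. HMOX1 was 16.7 times its control mean, SLC48A1 2.72 times and ALAS1 2.45 times. In the lactoferrin and PM2.5 group HMOX1, ALAS1, SLC48A1, BLVRB and FLVCR1 were higher than control and HMOX2 was lower. Between the exposed groups none passed the test, although every library with lactoferrin had more HMOX1 than every library with PM2.5 alone. A gene was called changed at a Benjamini-Hochberg adjusted p under 0.05 in limma, over the 14454 genes with at least 0.5 FPKM in at least 3 libraries. This filter admitted 9 of the 10 genes, ABCB6 being too low. The fold changes given with a standard error are on the scale of log2(scaled FPKM + 0.5), which understates changes of low genes.

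The 5 higher of 9 tested in PM2.5 against control are to be read beside 18.7% of all tested genes called higher, and the 1 lower beside 16.4% called lower. The median log2 fold change was 0.44 over the 9 genes and 0.00 over all tested genes. In lactoferrin and PM2.5 against control, 20.3% of all tested genes were called higher and 18.2% lower, and the median of the 9 was 0.39. Between the exposed groups 0.0208% of tested genes were called higher and 0.0277% lower, and 0 of the 9 were called by limma. At an unadjusted p under 0.05 there were 2, HMOX1 and SLC48A1, where 12.2% of all tested genes reached that level, and limma-voom on rebuilt fragment counts also called 0 of the 9. Against control, the PM2.5 call of BLVRB and both calls of FLVCR1 did not hold in every setting. Nor did the call of HMOX2 in lactoferrin and PM2.5 against control, as given with each gene.

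**Figure D1:**
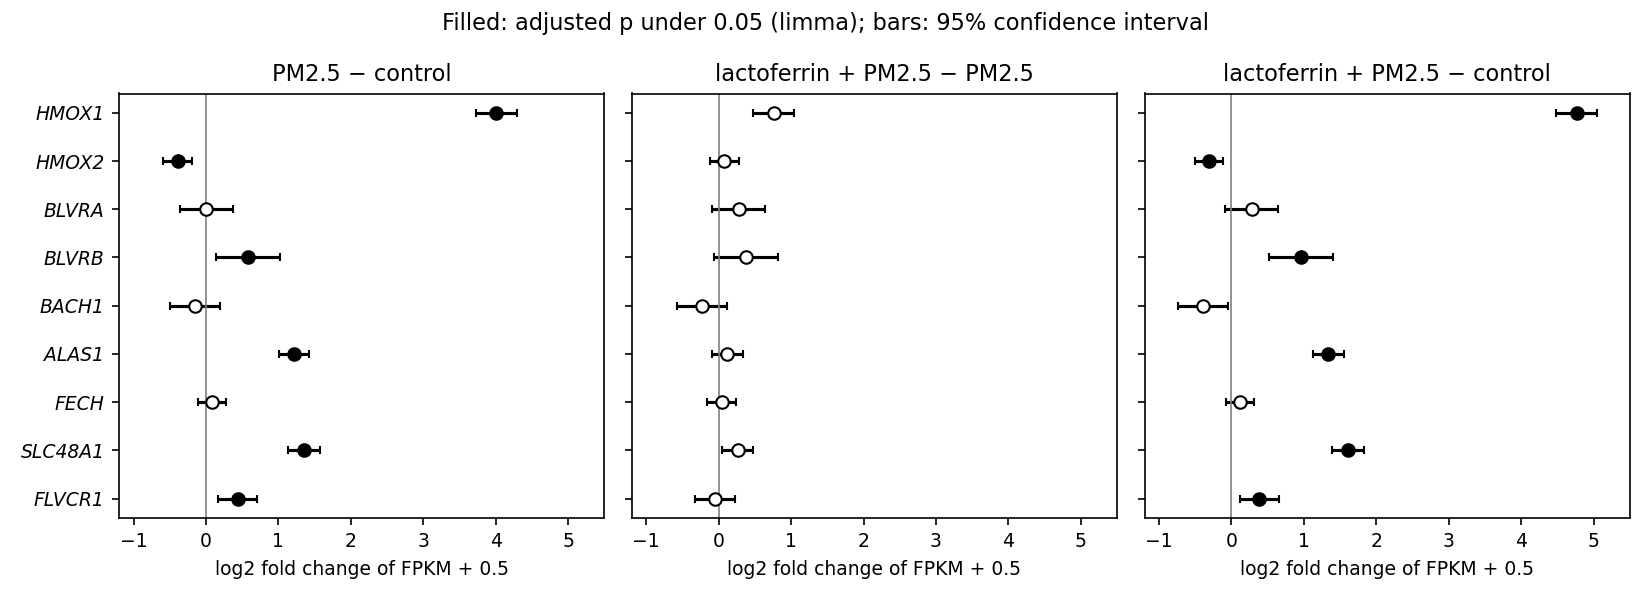
Log2 fold change (horizontal axis, log2 of scaled FPKM plus 0.5) of each of the 9 tested genes in the 3 comparisons, with points for the estimate, filled where the adjusted p is under 0.05, and bars for the 95% confidence interval. HMOX1 lies far from the other genes in both comparisons with control, at 4.01 and 4.77, and the intervals of most genes span 0 in the comparison of the exposed groups.

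Sequences upstream of the start sites are shown for ALAS1 and SLC48A1, which after HMOX1 had the largest increases of the set, and for BACH1, the repressor in the set. They come from RefSeq windows on GRCh38.p14 that run from 250 bases before to 50 bases after each start, and 9 of the 10 genes, all but HMOX1, had 1 or more windows, 12 in all. Capitals mark a match to one of 4 motifs searched on both strands. The ALAS1 bases before the start, chr3:52197833-52198082 on the plus strand with 67.2% GC, hold no match.
ALAS1: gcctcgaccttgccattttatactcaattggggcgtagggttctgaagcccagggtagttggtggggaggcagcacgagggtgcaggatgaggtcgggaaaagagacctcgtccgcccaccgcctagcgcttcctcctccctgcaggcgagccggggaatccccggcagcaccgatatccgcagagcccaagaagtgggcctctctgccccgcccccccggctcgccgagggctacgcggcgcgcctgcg
A stretch just after that start, chr3:52198094-52198123 on the plus strand, holds the palindrome bound by NRF1, a nuclear factor of mitochondrial genes that is distinct from NRF2, with its first base at position 22 from the start.
ALAS1 site: agcgcccaagGCGCATGCGCagcggtcact
The SLC48A1 bases, chr12:47772988-47773237 on the plus strand with 74% GC, hold no match.
SLC48A1: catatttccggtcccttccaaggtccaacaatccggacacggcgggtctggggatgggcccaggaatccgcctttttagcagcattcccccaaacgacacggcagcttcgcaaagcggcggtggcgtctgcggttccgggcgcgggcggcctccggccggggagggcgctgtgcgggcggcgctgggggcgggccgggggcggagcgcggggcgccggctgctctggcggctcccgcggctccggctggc
The BACH1 bases, chr21:29298672-29298921 on the plus strand with 78.4% GC, belong to 1 of its 3 windows and hold TGAGTCA, the AP-1 type sequence that is also the core of the MAF recognition element, with its first base at position -48.
BACH1: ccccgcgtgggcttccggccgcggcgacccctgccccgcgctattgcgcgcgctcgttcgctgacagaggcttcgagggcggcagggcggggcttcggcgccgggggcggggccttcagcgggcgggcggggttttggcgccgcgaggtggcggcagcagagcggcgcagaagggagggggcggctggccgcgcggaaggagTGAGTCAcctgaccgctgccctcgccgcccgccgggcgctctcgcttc

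The motif counts are small numbers and stand beside the shares of all windows. The antioxidant response element core TGACNNNGC was in 13.3% of 35116 windows of all genes and in 2 of the 12 windows of the set. These were TGACCAAGC at position -152 of ABCB6 and GCGAGGTCA at position -38 of FECH. In FECH the core lies on the strand opposite to the gene, and its letters are given in the direction of the gene. TGAGTCA was in 4.95% of all windows and in that 1 BACH1 window. The NRF1 palindrome GCGCATGCGC was in 1.24% of all windows and in the ALAS1 window alone among the 12. TCACGTGA, the element bound by factors of the MITF and TFE family, was in 0.980% of all windows and in none of the 12. These matches describe letters in a short window and no more.

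HMOX1 (ENSG00000100292, chromosome 22, 35380361 to 35394214, plus strand, GRCh38) encodes the inducible heme oxygenase. Its FPKM was 55.6, 50.5 and 43.0 in the control libraries, 916, 770 and 810 with PM2.5, and 1502, 1423 and 1272 with lactoferrin and PM2.5. The 3 groups did not overlap, and the lowest exposed library was far above the highest control. The means were 49.7 ± 6.33, 832 ± 75.7 and 1399 ± 117 FPKM (SD, n = 3 each). HMOX1 rose by 4.01 ± 0.13 (log2, SE) in PM2.5 against control, with a limma adjusted p of 2.64e-07, and only 2 of the 14454 tested genes had a larger increase. Against control the lactoferrin and PM2.5 group was higher by 4.77 ± 0.13 (adjusted p 5.37e-08), second among all tested genes.

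HMOX1 differed between the exposed groups by 0.76 ± 0.13, a fold of 1.69 with a 95% confidence interval of 0.47 to 1.04 on the log2 scale, higher in 3 of 3 libraries. The limma p was 0.000185 and its adjusted value 0.0883, which does not pass, and over the alternatives tried the adjusted p ranged from 0.00156 to 0.502. The alternatives in which it passed included the replicate block, library weights (adjusted p 0.00156) and the removal of trends of gene length and GC content (0.0222). In rank, HMOX1 moved from position 674, 732 and 838 by FPKM in the control libraries to 30, 31 and 30 with PM2.5 and 17, 19 and 20 with lactoferrin and PM2.5.

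**Figure D2:**
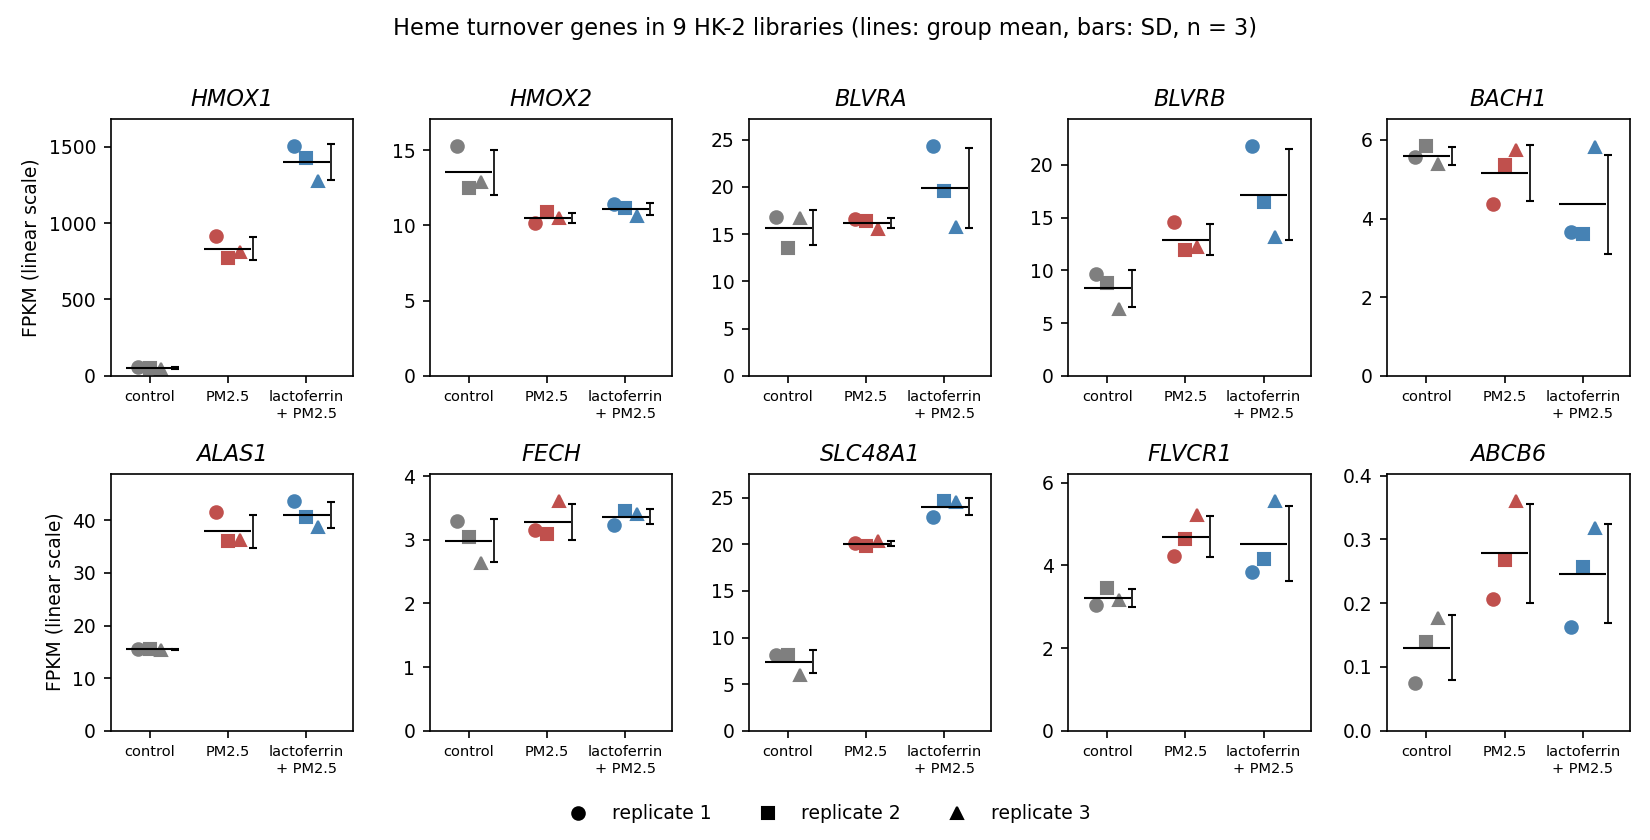
FPKM (vertical axes, linear, each from 0) of the 10 genes in each library of control, PM2.5 and lactoferrin with PM2.5; points are libraries, with shapes for replicate numbers, horizontal lines are group means and bars are SD (n = 3). HMOX1, ALAS1, SLC48A1, BLVRB and FLVCR1 show exposed libraries above all controls, and HMOX2 shows them below. BLVRA, BACH1 and FECH overlap between groups.

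HMOX2 (ENSG00000103415, chromosome 16, 4474690 to 4510347, plus strand) encodes the constitutive isozyme. It stood at 15.3, 12.5 and 12.9 FPKM in control, 10.2, 10.9 and 10.5 with PM2.5, and 11.4, 11.1 and 10.6 with lactoferrin and PM2.5. All exposed libraries were below all controls. HMOX2 fell by 0.39 ± 0.09 on the log2 scale with PM2.5 (adjusted p 0.00785, limma) and by 0.31 ± 0.09 with lactoferrin and PM2.5 (adjusted p 0.0202). The second call was lost when the 2 groups were fitted alone (adjusted p 0.0586), without the filter on low values (0.0501), and without the first control (0.0702) or the second or the third lactoferrin and PM2.5 library (0.0611 and 0.0568). Of its exon length, 6.01% overlaps NMRAL1 on the opposite strand, and the strand setting of the counting is not given in the sources used here.

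The balance of the isozymes was expressed as the share of HMOX1 in the summed FPKM of both. It was 78.5%, 80.2% and 77.0% in control, 98.9%, 98.6% and 98.7% with PM2.5, and 99.2% in each lactoferrin and PM2.5 library. HMOX1 was thus already the more abundant transcript per length in control cells. The means differed by 20.2 percentage points between PM2.5 and control and by 0.468 points between the exposed groups. The groups did not overlap in any comparison, and the two-sided exact permutation p was 0.1 for each, the smallest that 3 against 3 libraries allow (0.1 adjusted over 6 comparisons).

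BLVRA (ENSG00000106605, chromosome 7, 43758680 to 43807342, plus strand) encodes the main adult biliverdin reductase. Its FPKM was 16.8, 13.5 and 16.7 in control, 16.6, 16.4 and 15.6 with PM2.5, and 24.3, 19.5 and 15.8 with lactoferrin and PM2.5. The groups overlapped, and the lactoferrin and PM2.5 libraries were widely spread. The difference between PM2.5 and control was 0.00 ± 0.16, with a 95% interval of -0.36 to 0.37, and its sign changed among alternatives. Lactoferrin and PM2.5 against control gave 0.28 ± 0.16 (adjusted p 0.204), which passed with library weights (0.0115) and without the third lactoferrin and PM2.5 library (0.45, adjusted p 0.0359).

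BLVRB (ENSG00000090013, chromosome 19, 40447765 to 40465840, minus strand) encodes the flavin reductase that acts on other biliverdin isomers and is abundant in fetal tissue and red cells. It measured 9.70, 8.80 and 6.38 FPKM in control, 14.6, 11.9 and 12.2 with PM2.5, and 21.8, 16.5 and 13.2 with lactoferrin and PM2.5. Every exposed library was above every control. BLVRB was higher by 0.58 ± 0.20 with PM2.5 (adjusted p 0.0465, limma) and by 0.96 ± 0.20 with lactoferrin and PM2.5 (adjusted p 0.00459). The PM2.5 call lay close to the threshold and was lost without the filter (adjusted p 0.130) and without the second (0.0815) or the third control (0.153), the first (0.148), the second (0.0746) or the third PM2.5 library (0.0758), or the second lactoferrin and PM2.5 library (0.0731). Without both the third control and the first lactoferrin and PM2.5 library, which held the lowest and the highest value, the differences were 0.43 (adjusted p 0.0476) and 0.62 (0.0187). Deviations of libraries from their group mean correlated with gene length at r (across genes) of -0.12 to 0.17 over all 9 libraries. With trends of length and GC content removed, the differences of BLVRB were 0.53 and 0.85, both called.

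BACH1 (ENSG00000156273, chromosome 21, 29194071 to 29630751, plus strand) was at 5.55, 5.84 and 5.38 FPKM in control, 4.36, 5.37 and 5.74 with PM2.5, and 3.65, 3.62 and 5.82 with lactoferrin and PM2.5. The ranges overlapped, since the third library of each exposed group was within the control range. The second PM2.5 library (5.37) was just below the lowest control (5.38). The difference with PM2.5 was -0.16 ± 0.15 (95% interval -0.50 to 0.19) and that of lactoferrin and PM2.5 against control was -0.39 ± 0.15 (adjusted p 0.0730). The alternatives in which the latter passed included the replicate block, limma-voom (adjusted p 0.0448) and library weights (0.00296). It also passed in the fit without the third lactoferrin and PM2.5 library (-0.58, adjusted p 0.00366). BACH1 activity is set largely by heme binding and protein turnover, which transcript levels do not measure.

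Among the synthesis enzymes, ALAS1 (ENSG00000023330, chromosome 3, 52198086 to 52214327, plus strand) encodes the rate-limiting first enzyme outside the erythroid lineage, which heme normally represses. It stood at 15.6, 15.5 and 15.3 FPKM in control, 41.5, 36.0 and 36.2 with PM2.5, and 43.6, 40.5 and 38.7 with lactoferrin and PM2.5. The controls were nearly equal and all exposed libraries were higher than them. ALAS1 rose by 1.22 ± 0.09 with PM2.5 (adjusted p 2.24e-05, limma) and by 1.34 ± 0.09 with lactoferrin and PM2.5 (9.86e-06), and these calls held in each of the 21 alternatives. The exposed groups overlapped and differed by 0.12 ± 0.09 (95% interval -0.09 to 0.33, adjusted p 0.562).

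FECH (ENSG00000066926, chromosome 18, 57548283 to 57586772, minus strand) encodes ferrochelatase, the last step. Its FPKM was 3.29, 3.04 and 2.63 in control, 3.15, 3.09 and 3.61 with PM2.5, and 3.23, 3.45 and 3.41 with lactoferrin and PM2.5. The groups overlapped. FECH differed from control by 0.08 ± 0.09 with PM2.5 (95% interval -0.11 to 0.27) and by 0.12 ± 0.09 with lactoferrin and PM2.5 (adjusted p 0.304), so the interval for PM2.5 leaves out an increase of the size seen for ALAS1.

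Of the other 7 synthesis enzymes, 6 were tested. In PM2.5 against control 1 was higher and 2 were lower, with a median of -0.18. The counts of this and the other lists stand beside the shares of all tested genes, 18.7% higher and 16.4% lower with PM2.5, and 20.3% and 18.2% with lactoferrin and PM2.5. ALAD, the second enzyme, fell by 1.06 ± 0.09 (adjusted p 3.91e-05, limma), from 7.30, 6.58 and 6.25 FPKM to 3.11, 3.0 and 3.03, and was 3.40, 3.08 and 2.87 with lactoferrin and PM2.5. ALAD therefore moved against ALAS1, the enzyme before it. CPOX, the coproporphyrinogen oxidase, rose by 0.46 ± 0.11 (adjusted p 0.0108). UROS, which closes the ring, was lower by 0.37 ± 0.11 (adjusted p 0.0312), but this call was lost without scaling factors, without the filter, with length and GC trends removed, and without any of 6 single libraries. The erythroid isozyme ALAS2 averaged 0.0278 FPKM in control and 0.0344 with PM2.5. In lactoferrin and PM2.5 against control 2 were higher and 1 lower, ALAD again falling, by 1.03 ± 0.09 (adjusted p 3.62e-05). Without the third control and the first lactoferrin and PM2.5 library, these counts were 1 and 2, with UROS then called lower.

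**Figure D3:**
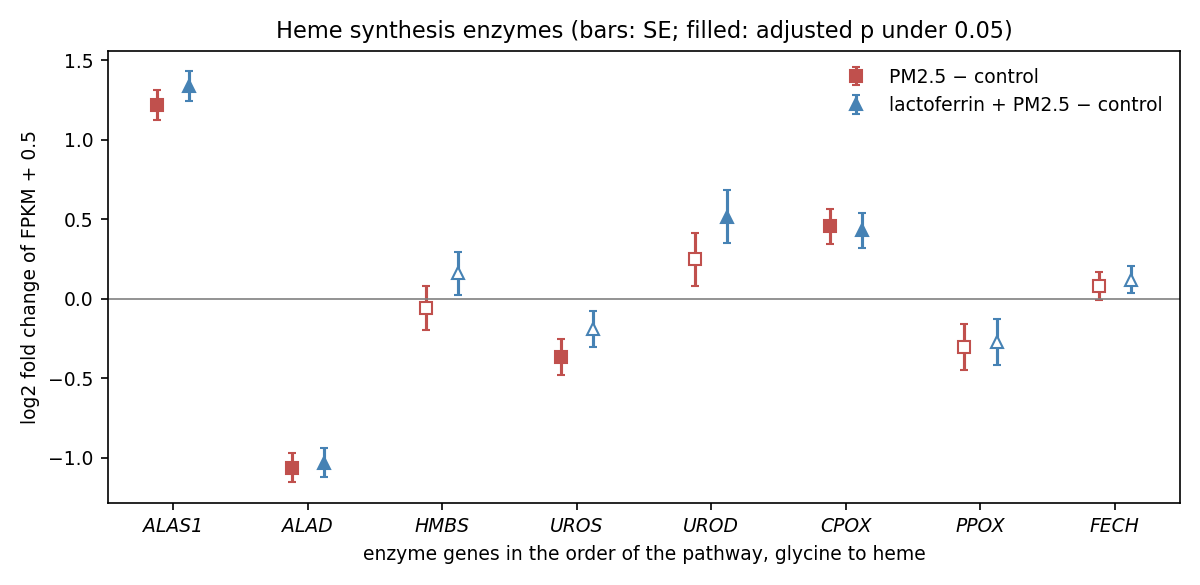
Log2 fold change (vertical axis, log2 of scaled FPKM plus 0.5) against control of the tested enzymes of heme synthesis in pathway order along the horizontal axis, with bars for 1 standard error and filled symbols where the adjusted p is under 0.05, for both exposed groups. ALAS1 at the start is higher (1.22 with PM2.5) while ALAD next to it is lower (-1.06), and FECH at the end is close to 0.

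Carriers and helpers of the pathway in the mitochondrion were tested for 10 of 12 listed genes. With PM2.5 3 were called, all higher, with a median of 0.14, and with lactoferrin and PM2.5 5 were higher and 1 lower. Without the third control and the first lactoferrin and PM2.5 library 4 were higher with PM2.5. SLC25A38, the carrier that brings glycine to ALAS1, rose from 9.89 ± 1.02 to 14.9 ± 0.143 FPKM (SD, n = 3 each), by 0.53 ± 0.08 (adjusted p 0.00150, limma). The mitochondrial iron importer SLC25A28 rose by 0.49 ± 0.09 (adjusted p 0.00288). LONP1, a matrix protease that degrades ALAS1 protein when heme is plentiful, rose by 0.54 ± 0.10 (adjusted p 0.00294).

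With 1 gene for each arm, HMOX1 was set against ALAS1 by the log2 ratio of their FPKM. The ratio restates the values above and does not measure the balance of heme breakdown and synthesis. It was 1.83, 1.71 and 1.49 in control, 4.46, 4.42 and 4.48 with PM2.5, and 5.11, 5.13 and 5.04 with lactoferrin and PM2.5. The groups did not overlap, and every lactoferrin and PM2.5 library was above every PM2.5 library although ALAS1 itself overlapped between them. The means differed by 2.78 between PM2.5 and control and by 0.64 between the exposed groups, each with a two-sided exact permutation p of 0.1, the smallest possible here.

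**Figure D4:**
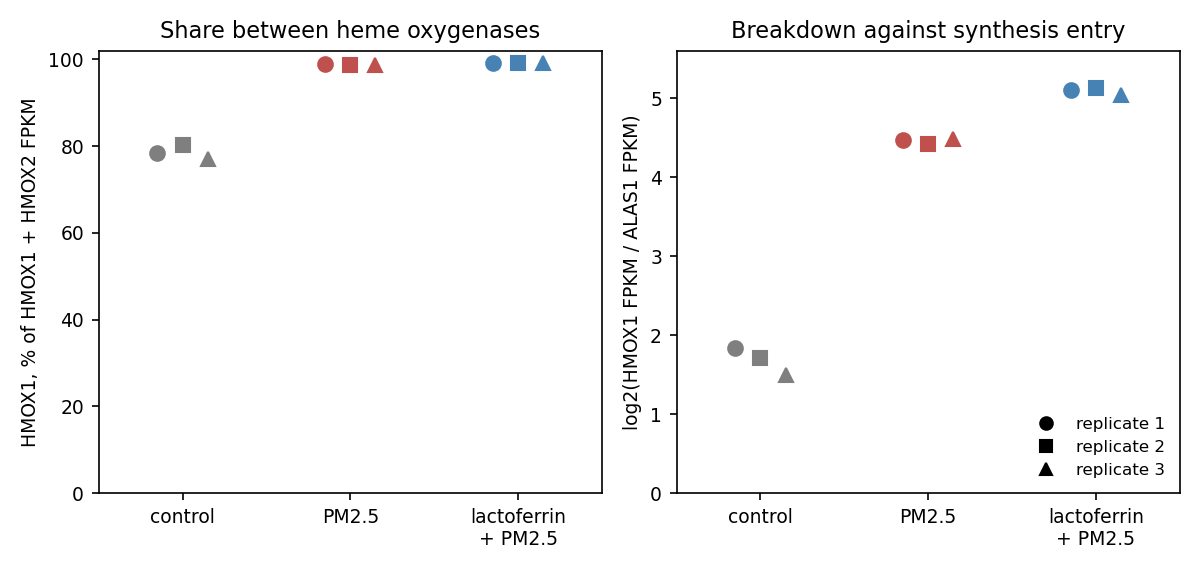
Left, HMOX1 as a percent of HMOX1 plus HMOX2 FPKM, and right, the log2 ratio of HMOX1 to ALAS1 FPKM, per library in the 3 groups; each point is 1 library and its shape gives the replicate number. Control libraries lie at 77.0% to 80.2% and exposed libraries at 98.6% or more, and the ratio separates all 3 groups.

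Among the heme transporters, SLC48A1 (ENSG00000211584, chromosome 12, 47753916 to 47782753, plus strand) encodes HRG1, which moves heme out of endosomes and lysosomes into the cytosol. It measured 8.15, 8.08 and 5.96 FPKM in control, 20.2, 19.8 and 20.3 with PM2.5, and 23.0, 24.6 and 24.6 with lactoferrin and PM2.5. All 3 groups were apart from each other, with little spread in the exposed ones. SLC48A1 rose by 1.35 ± 0.10 with PM2.5 (adjusted p 1.47e-05, limma) and by 1.61 ± 0.10 with lactoferrin and PM2.5 (4.07e-06). Its difference between the exposed groups was 0.26 ± 0.10, higher in 3 of 3 libraries, with a 95% interval of 0.04 to 0.48, a p of 0.0241 and an adjusted p of 0.382 (0.0158 with library weights). Overlaps with RAPGEF3 and HDAC7 on the opposite strand cover 1.69% and 0.650% of its exon length.

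FLVCR1 (ENSG00000162769, chromosome 1, 212858255 to 212899363, plus strand) was first described as an exporter of heme across the plasma membrane and has since been assigned choline transport as well. Its FPKM was 3.03, 3.44 and 3.17 in control, 4.22, 4.64 and 5.21 with PM2.5, and 3.85, 4.16 and 5.55 with lactoferrin and PM2.5. Each exposed library was above each control. FLVCR1 was higher by 0.44 ± 0.12 with PM2.5 (adjusted p 0.0197, limma) and by 0.39 ± 0.12 with lactoferrin and PM2.5 (0.0303). The PM2.5 call was lost without the filter (0.0572) and without the first control (0.0645) or the second or the third PM2.5 library (0.0532 and 0.0742). The other was lost without the filter (0.0803), with the 2 groups alone (0.0599), and without the first, the second or the third control (0.0904, 0.0558 and 0.0560) or the third lactoferrin and PM2.5 library (0.0724).

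ABCB6 (ENSG00000115657, chromosome 2, 219209766 to 219219017, minus strand), a porphyrin transporter of intracellular membranes, was under the filter. It measured 0.0753, 0.139 and 0.176 FPKM in control, 0.206, 0.268 and 0.360 with PM2.5, and 0.163, 0.257 and 0.317 with lactoferrin and PM2.5. The PM2.5 libraries were above all controls. When all 34366 genes above 0 were fitted, ABCB6 did not pass against control (0.29 ± 0.13 with PM2.5, adjusted p 0.230). More than any other gene of the set it shares exons with another, since AC068946.2 on the same strand covers 54.7% of its exon length, and how reads in shared exons were counted is not stated.

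Counting ABCB6, 6 of the 10 genes lay above the controls with no overlap in PM2.5 and 1 below, where 30.9% and 22.7% of tested genes did so. In lactoferrin and PM2.5 against control the counts were 5 and 1, where 26.8% and 20.7% of tested genes did so. In the exposed groups, lactoferrin and PM2.5 lay above PM2.5 alone for 2, HMOX1 and SLC48A1, and below it for 0, where 11.3% and 9.79% of tested genes did so.

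Of 11 other heme transporters and heme-binding proteins 8 were tested, with 1 higher and 2 lower in PM2.5 against control and a median of 0.05. PGRMC2, a membrane chaperone that carries labile heme to the nucleus, fell by 0.62 ± 0.09 (adjusted p 0.000839, limma), from 43.9 ± 5.45 to 29.2 ± 2.49 FPKM. HEBP1, a cytosolic heme-binding protein, rose by 0.69 ± 0.13 (adjusted p 0.00325). HEBP2, its paralog, was lower by 0.41 ± 0.11 (adjusted p 0.0195), a call lost in 6 of 21 alternatives. With lactoferrin and PM2.5 2 were higher and 3 lower. Without the third control and the first lactoferrin and PM2.5 library, 1 was higher and 3 were lower in either exposed group, and the median with PM2.5 was -0.0028. The PM2.5 counts were 2 and 2 with limma-voom, with either other scaling and with length and GC trends removed.

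The order of FPKM levels, which are per length, differed between groups. In control HMOX1 was highest, followed by BLVRA and ALAS1, whose ranges overlapped, then HMOX2, then BLVRB and SLC48A1, which overlapped, then BACH1, then FLVCR1 and FECH, which overlapped, and ABCB6. With PM2.5 ALAS1 and SLC48A1 came next, in that order and ahead of BLVRA, BLVRB and HMOX2. With lactoferrin and PM2.5 ALAS1 was again second, followed by SLC48A1, BLVRA and BLVRB, where BLVRA overlapped both of the others and these were apart. ABCB6 was lowest in each group.

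The regulators around BACH1 were read from a list of 12 genes, 11 of them tested. In PM2.5 against control 4 were called, all higher, with a median of 0.19, and with lactoferrin and PM2.5 4 were higher and 1 lower. With length and GC trends removed the PM2.5 counts were 4 higher and 1 lower, with a median of 0.10. Without the third control and the first lactoferrin and PM2.5 library they were 5 and 1, with a median of 0.11, and those with lactoferrin and PM2.5 were 4 and 2. SQSTM1, the autophagy receptor p62 that binds KEAP1, rose from 24.9 ± 2.08 to 95.7 ± 9.31 FPKM with PM2.5, by 1.87 ± 0.11 (adjusted p 4.14e-06, limma), and stood at 114 ± 7.14 FPKM with lactoferrin and PM2.5. The small MAF genes MAFG and MAFF, whose products are the shared partners of BACH1 and NRF2, rose by 1.45 ± 0.11 (adjusted p 2.06e-05) and 0.85 ± 0.07 (4.55e-05). NFE2L2, which encodes NRF2 itself, did not pass (-0.31 ± 0.13, adjusted p 0.0911).

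All 12 listed target genes shared by BACH1 and NRF2 were tested. With PM2.5 11 were higher and 1 lower, with a median of 1.25 against 0.00 for all genes, and the same counts were found with lactoferrin and PM2.5. TXNRD1, thioredoxin reductase, rose from 38.6 ± 3.94 to 177 ± 8.21 FPKM, by 2.14 ± 0.11 (adjusted p 2.93e-06, limma). GCLM, a subunit of the first enzyme of glutathione synthesis, rose by 1.37 ± 0.07 (adjusted p 2.50e-06) and OSGIN1 by 2.19 ± 0.12 (4.14e-06). The ferritin genes, whose products store the iron that heme oxygenase frees, rose as well, FTH1 by 1.56 ± 0.25 (adjusted p 0.00150) and FTL by 0.80 ± 0.23 (0.0257). The FTL call was lost without the filter and without the second control, the third control, the first PM2.5 or the second PM2.5 library, with adjusted p up to 0.0881. The 1 lower gene was SLC40A1, which encodes the iron exporter ferroportin and fell by 0.57 ± 0.13 (adjusted p 0.00824), from 2.43, 2.40 and 1.72 FPKM in control to 1.08, 1.43 and 1.55. The counts of 11 and 1 held under both other scalings, with length and GC trends removed, and without the third control and the first lactoferrin and PM2.5 library. Comparing the exposed groups, limma and limma-voom each called 0 of the 12, with 2 at an unadjusted p under 0.05 in limma and a median of 0.13.

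Downstream of bilirubin, 3 of 10 listed conjugation and transport genes were tested. ABCC3, which exports conjugated bilirubin, rose by 1.94 ± 0.12 with PM2.5 (adjusted p 7.16e-06, limma), from 1.31 ± 0.143 to 6.66 ± 0.615 FPKM. ABCC2, an apical exporter of the same family, was low, at 0.158, 0.216 and 0.285 FPKM in control and 0.514, 0.690 and 0.659 with PM2.5. It was higher by 0.62 ± 0.18 (adjusted p 0.0240, limma), but it met the filter only through the exposed groups. The difference was 0.40 to 1.45 over the alternatives. The call was lost without the first or second control or the second or the third PM2.5 library. ABCC1, a basolateral one, did not pass with PM2.5 (-0.17 ± 0.15, adjusted p 0.411). In lactoferrin and PM2.5 against control 2 of the tested genes were higher and 1, ABCC1, was lower. That ABCC1 difference was -0.68 to -0.32 over the settings, and its call was lost without the filter and without the second control. UGT1A1, the enzyme that conjugates bilirubin, averaged 0.00817 FPKM with PM2.5 and was listed at 0 in the other groups.

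Proteins that use heme or supply electrons for its breakdown were listed as 21 genes, of which 15 were tested. With PM2.5 5 were higher and 2 lower, with a median of 0.11 that turned to 0.00 without the third control and the first lactoferrin and PM2.5 library, and with lactoferrin and PM2.5 7 were higher and 3 lower, or 5 and 2 without those libraries. The cytochrome P450 genes CYP1A1 and CYP1B1, which are induced through the aryl hydrocarbon receptor, rose by 2.22 ± 0.10 (adjusted p 1.24e-06, limma) and 2.36 ± 0.14 (5.91e-06). CYP1A1 went from 0.109 ± 0.0212 to 2.38 ± 0.189 FPKM and CYP1B1 from 4.29 ± 0.423 to 24.9 ± 3.41 FPKM. For the low CYP1A1 the log2 fold change was 1.59 to 4.33 over the alternatives, which include other pseudocounts. CYP1A1 met the filter of 0.5 FPKM only through the exposed groups, with controls at 0.117, 0.126 and 0.0853 FPKM. POR, the reductase that feeds electrons to heme oxygenase and to cytochromes P450, was among the higher genes in both groups. It stood at 10.9, 11.4 and 9.60 FPKM in control, 31.6, 25.8 and 25.3 with PM2.5, and 31.7, 38.3 and 38.4 with lactoferrin and PM2.5. The PM2.5 libraries were all above control, and the lactoferrin and PM2.5 libraries were all above those with PM2.5 alone by a difference of 0.39 ± 0.11 that did not pass (adjusted p 0.310). Against control POR rose by 1.28 ± 0.11 with PM2.5 (adjusted p 4.96e-05). In each of the 7 lists, 0 genes were called between the exposed groups by limma or by limma-voom, with 0 to 3 genes of a list at an unadjusted p under 0.05.

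Finally, genes outside the set were ranked by how closely their log2(FPKM + 0.5) followed HMOX1 over the 9 libraries, among 6547 tested genes with a symbol and a mean of at least 5 FPKM. The 5 closest were ACP5 (Pearson r 0.999), ATP6V1B2 (0.998), SQSTM1 (0.998), MAPK13 (0.998) and FBXO32 (0.997). ACP5, a lysosomal acid phosphatase, was at 5.39 ± 0.277, 13.0 ± 0.324 and 14.7 ± 0.407 FPKM in control, PM2.5 and lactoferrin with PM2.5. ATP6V1B2, a subunit of the proton pump that acidifies lysosomes, was at 12.1 ± 0.356, 28.3 ± 0.243 and 34.1 ± 0.794 FPKM. Within the set, SLC48A1 (0.994) and ALAS1 (0.991) followed HMOX1 most closely, BLVRB had 0.860 and FLVCR1 0.791, and HMOX2 ran opposite at -0.843. The 9 points fall into 3 groups of 3, so these values mainly describe the order of the group means and carry no test.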

How the data were processed

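The 9 HK-2 libraries were grouped and numbered by their labels, 3 to a group. Per the submitters' processing notes, the authors worked with build GRCh38 and with featureCounts 1.6.0, HISAT2 2.1.0, Trimmomatic 0.38, DESeq2 1.22.1, FastQC, MultiQC and CASAVA; their order, settings, strand mode and annotation are not stated there. The deposited values are FPKM for 58884 Ensembl identifiers. The unit was inferred: multiplied by GENCODE v29 exon lengths (58611 identifiers), 86.0% to 87.2% of values up to 200 fragments were whole within 0.05 of a fragment, which gave the depth. Symbols matched 41967 identifiers.

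FPKM were divided by TMM factors (0.942 to 1.036), and genes with at least 0.5 FPKM in at least 3 libraries were fitted as log2(value + 0.5) in limma 3.58.1 (R 4.3.3; trend and robust moderation, all libraries in 1 fit, Benjamini-Hochberg over 14454 genes). The fit was run on simulated data drawn with the same added spread for every gene and library, unlike the uneven replicates of these data. Ratios were tested by exact permutation. Deviations of same-numbered libraries correlated at -0.07 to 0.18 and those of other pairs at -0.18 to 0.14. These values do not settle whether the numbers mark pairs. The main fit did not treat them as pairs, and the replicate block was an alternative. Figures used Python 3.11.15 and matplotlib 3.10.9.

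Named genes were all 10 members, up to 3 genes with the smallest adjusted p in PM2.5 against control of each of 7 heme-related lists, and the 5 genes closest to HMOX1. NFE2L2, ALAS2, UGT1A1, FTH1, FTL, SLC40A1 and the markers named were chosen outside this rule, after their values were seen. Another 5 lists held cell type markers: proximal tubule, simple epithelium, macrophage and leukocyte, erythroid, and endothelium and fibroblast. Members and lists were chosen with earlier results of these data known. Alternatives covered scaling, filter, pseudocount, limma-voom, groups fitted, replicate block, library weights and single libraries left out; removing length and GC trends, and leaving out 2 libraries together, were added after seeing the data.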

Additional observations from a re-analysis of the deposited data

How the results depend on the processing

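The increases of HMOX1, ALAS1 and SLC48A1 against control in both exposed groups, and of BLVRB in lactoferrin and PM2.5, kept their direction and call in all 21 alternatives, as did the fall of HMOX2 with PM2.5. The HMOX1 share and the HMOX1 to ALAS1 ratio moved by less than 1 SD in each alternative. The cause of the changes below was not tested. With 3 libraries a group, and at the depth given, adjusted p-values near the threshold moved across it when single libraries were left out. The first estimate of library weights (REML) gave 1 library a weight of 29.3, so gene-by-gene weights were used.

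Over all genes, 5076 were called in PM2.5 against control and 7729 with library weights (3689 to 5871 with single libraries left out); in lactoferrin and PM2.5 against control 5554 were called (4216 to 5419). Between the exposed groups 7 were called, against 16 with limma-voom, 4 with the 2 groups alone, 13 with the replicate block, 1837 with library weights, 16 with length and GC trends removed, 12 without the third control and first lactoferrin and PM2.5 library together, and 0 to 10 with single libraries left out, the lowest without the first or second PM2.5 or the second lactoferrin and PM2.5 library.

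HMOX1 between the exposed groups passed with the replicate block (0.76, adjusted p 0.0368, limma), library weights (0.82, 0.00156) and length and GC trends removed (0.70, 0.0222); with single libraries left out it was 0.68 to 0.84, up to an adjusted p of 0.502 without the second PM2.5 library. Against control it was 3.92 to 4.08 and 4.68 to 4.85 with single libraries left out.

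Of the heme genes, 5 were higher in PM2.5 against control, 3 without the filter and 3 to 5 with single libraries left out (3 without the second or the third PM2.5 library). Between the exposed groups 0 were higher, against 1 with the replicate block, 3 with library weights and 1 with length and GC trends removed; 0 were lower, against 1 with library weights, and single libraries left out gave 0 in both directions. In lactoferrin and PM2.5 against control 5 were higher (4 to 5) and 1 lower, against 0 without the filter, 2 with limma-voom, 0 with the 2 groups alone, 2 with the replicate block, 2 with library weights and 0 to 1 with single libraries left out (0 without the first control or the second lactoferrin and PM2.5 library). The replicate block also called BACH1 lower in lactoferrin and PM2.5 against control (adjusted p 0.0417) and changed no other call among the 9 genes.

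The sign turned for BLVRA with PM2.5 (-0.035 with length and GC trends removed, and -0.11 to 0.071 with single libraries left out), for BACH1 with PM2.5 (0.021 with length and GC trends removed) and for FLVCR1 between the exposed groups (0.039 without the 2 libraries together, and -0.18 to 0.025 with single libraries left out), all small and not called.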
